A study of Homo sapiens with 4 samples.

Results

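The chromosomal passenger complex is the Aurora B kinase assembly that corrects faulty chromosome attachments at centromeres and then moves to the spindle midzone for cytokinesis. The expression of its genes was measured in Huh1 and Huh7 cells, established human hepatocellular carcinoma (HCC) cell lines, after silencing of CDCA8, which encodes its subunit borealin. 9 genes were chosen by symbol from the 18398 RefSeq transcripts of the deposited tables: the complex genes CDCA8, AURKB, BIRC5 and INCENP, the related kinase gene AURKC, and the recruitment genes GSG2, BUB1, SGOL1 and SGOL2. Each symbol matched 1 transcript, so that values of other isoforms were not analysed here. Cells were transfected with 15 nM siRNA in cationic lipid and RNA was taken 48 h later. One library came from Huh1 cells with negative control (NC) siRNA, one from Huh1 cells with CDCA8 siRNA, one from Huh7 cells with NCsiRNA and one from Huh7 cells with CDCA8 siRNA. The NCsiRNA targets no endogenous transcript. A single CDCA8 siRNA variant was sequenced, CDCA8-1siRNA, so effects of silencing CDCA8 and other effects of that siRNA cannot be told apart. There was 1 library per condition and no untransfected library.

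Every level below is in RPKM, a read count scaled to the length of the transcript and to the mapped reads of the library. The 4 libraries corresponded to between 12197606 and 13384836 reads on the scale of the deposited values, and between 2568 and 3169 transcripts were at 0. All 10 hepatocyte and HCC markers were at 1 RPKM or more in every library, ALB and AFP among them. Their summed level was 5238 RPKM in Huh1 cells with NCsiRNA and 4022 with CDCA8 siRNA, against 3323 and 2335 in Huh7 cells. Of 3 endothelial markers measured, each was below 1 RPKM in every library. Of 5 immune markers only CD68 reached 1 RPKM. Of 3 cholangiocyte markers, SOX9 and KRT19 reached 1 RPKM in every library and KRT7 in both Huh1 libraries, with a sum of 100.1 to 144 RPKM. The 5 fibroblast markers summed to 0.168 and 0.211 RPKM in Huh1 cells and to 141 and 187 RPKM in Huh7 cells, through the collagen genes COL1A1, COL1A2 and COL3A1.

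In the complex, AURKB is the catalytic subunit and INCENP is the scaffold that binds and activates it. BIRC5 (survivin) and CDCA8 (borealin) bind the other end of INCENP and form the module that finds the centromere. Recruitment rests on a pair of histone marks: haspin, encoded by GSG2, phosphorylates histone H3 at threonine in the inner centromere, where survivin binds, and the kinase BUB1 phosphorylates histone H2A, which brings in the shugoshins SGOL1 and SGOL2. Shugoshins protect centromeric cohesin with the phosphatase PP2A and also bind borealin. The mRNAs of most of these genes peak in G2 and mitosis, and many such genes carry a CHR element near the start of transcription together with CCAAT boxes.

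The promoter letters of the members are shown because most of these genes are known to peak in G2 and mitosis. Whether the letters bear on the changes below was not tested. RefSeq windows on GRCh38.p14 were held for 7 of the 9 members (SGOL1 and SGOL2 under their newer symbols SGO1 and SGO2), and none for BIRC5 and GSG2. The stretches below run from 90 bases before to 10 bases after the annotated start, 5′ to 3′ on the strand of the gene. Capitals mark CHR letters (TTTGAA or TTTAAA), the related TTCGAA, and CCAAT, each searched on both strands, so that ATTGG is CCAAT on the other strand. TTCGAA was added to the search after the sequences had been seen. For AURKB and SGOL2, which had 2 windows each, 1 start is shown, the more upstream one for AURKB and the more downstream one for SGOL2.
CDCA8: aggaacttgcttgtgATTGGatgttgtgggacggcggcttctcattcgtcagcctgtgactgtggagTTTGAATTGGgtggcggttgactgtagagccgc
INCENP: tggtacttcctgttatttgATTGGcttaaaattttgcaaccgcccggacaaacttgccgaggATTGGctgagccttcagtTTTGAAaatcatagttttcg
AURKB: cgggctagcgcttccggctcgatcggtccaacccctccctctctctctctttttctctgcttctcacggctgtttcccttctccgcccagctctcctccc
AURKC: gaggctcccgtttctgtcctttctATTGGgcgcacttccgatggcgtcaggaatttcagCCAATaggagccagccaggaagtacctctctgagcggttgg
BUB1: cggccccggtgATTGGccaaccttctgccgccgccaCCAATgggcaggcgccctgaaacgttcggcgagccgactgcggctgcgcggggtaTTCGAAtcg
SGOL1: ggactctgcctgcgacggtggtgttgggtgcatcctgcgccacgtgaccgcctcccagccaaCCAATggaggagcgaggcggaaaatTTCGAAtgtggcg
SGOL2: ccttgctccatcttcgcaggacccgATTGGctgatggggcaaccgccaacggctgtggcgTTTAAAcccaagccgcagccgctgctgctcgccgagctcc

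These stretches lie at chr1:37692426-37692525 (plus strand) for CDCA8, chr11:62123921-62124020 (plus) for INCENP, chr17:8210240-8210339 (minus) for AURKB, chr19:57230933-57231032 (plus) for AURKC, chr2:110678054-110678153 (minus) for BUB1, chr3:20186197-20186296 (minus) for SGOL1 and chr2:200526117-200526216 (plus) for SGOL2. The letters TTTGAA began 23 bases before the start of CDCA8 and 10 bases before that of INCENP. TTTAAA began 30 bases before the SGOL2 start shown. Counted from the other SGOL2 start, TTTAAA began at base 36 and lay outside the matching stretch, which held none of the 3 hexamers. In CDCA8 the last A of TTTGAA is also the first base of an ATTGG. The letters TTCGAA began at base 2 of BUB1 and 3 bases before the start of SGOL1. AURKB and AURKC held none of the 3 hexamers in either the stretch shown or the full window, and AURKB had its CCAAT further upstream, 129 bases before the start shown. Over all 35116 RefSeq windows, the same 100 bases held TTTGAA or TTTAAA in 8.21%, TTCGAA in 0.347% and CCAAT in 17.4%. TTCGAA entered the search after these sequences had been seen, so its share cannot show whether the members are unusual. These are matches of letters and not measured sites.

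CDCA8, the target of the siRNA, was read first because it checks the labels. Its level was 24.1 RPKM in Huh1 cells with NCsiRNA and 5.86 RPKM with CDCA8 siRNA, and 51.5 RPKM in Huh7 cells with NCsiRNA and 7.36 RPKM with CDCA8 siRNA. Both CDCA8 siRNA libraries were thus below both NCsiRNA libraries. Huh1 cells kept 24.3% of the control level, with a 95% counting interval of 20.5% to 28.7% (Clopper-Pearson, from 178 reads against 742), and Huh7 cells kept 14.3%, with an interval of 12.3% to 16.6% (208 reads against 1446). Such intervals cover the counting of reads only and hold no variation between cultures. No transcript past the filter had a larger decrease of log2(RPKM + 1) in either cell line, a scale that understates the change of low genes. The filter, at least 1 RPKM in either library of a pair, left 10940 transcripts in Huh1 and 11565 in Huh7 cells. The shares of tested transcripts given below are on the same scale. The level with CDCA8 siRNA was 1.26 times as high in Huh7 as in Huh1 cells (interval 1.02 to 1.54), while the level with NCsiRNA was 2.14 times as high (interval 1.96 to 2.34). In bulk RNA, fewer cells that express a gene and less RNA per cell cannot be told apart, here and for every gene below.

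**Figure D1:**
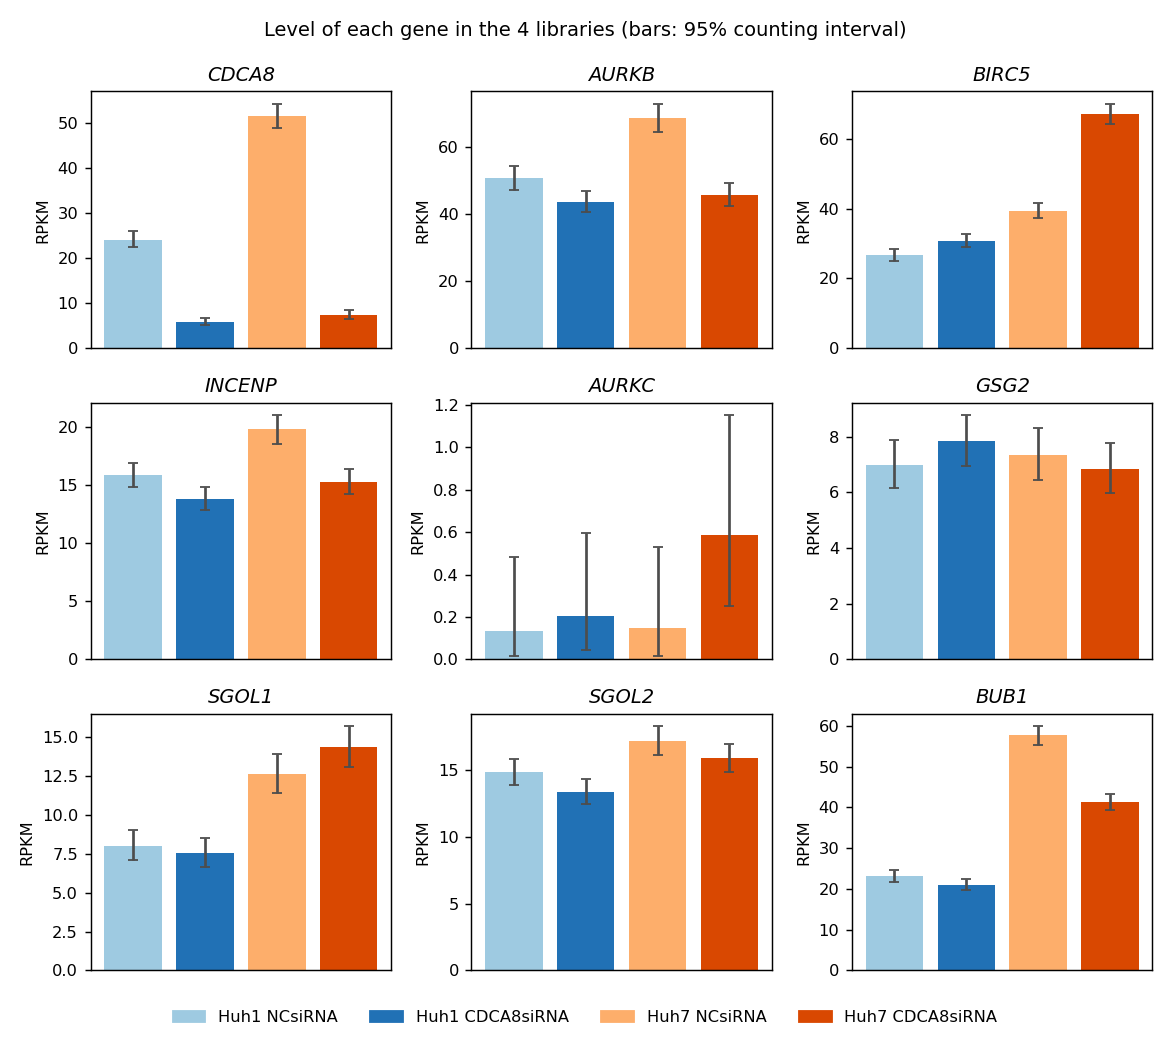
RPKM of each of the 9 genes (vertical axes, starting at 0, with a scale of its own for each gene) in the 4 libraries, with bars for the 95% Poisson interval of the read counts. CDCA8 was low in both CDCA8 siRNA libraries, BIRC5 was highest in Huh7 cells with CDCA8 siRNA at 67.2 RPKM, and AURKC stayed below 1 RPKM throughout.

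The kinase gene AURKB was lower and the survivin gene BIRC5 was higher after CDCA8 siRNA in both cell lines, by more in Huh7 than in Huh1 cells. AURKB had 50.6 RPKM in Huh1 cells with NCsiRNA and 43.6 RPKM with CDCA8 siRNA, and 68.5 and 45.6 RPKM in Huh7 cells. Both levels with CDCA8 siRNA were below both control levels, and they were nearly equal to each other. The level with CDCA8 siRNA was 86.2% of the control in Huh1 cells (counting interval 77.9% to 95.4%) and 66.5% in Huh7 cells (60.3% to 73.3%). In Huh7 cells, 3.55% of the tested transcripts had a more negative difference than AURKB, and in Huh1 cells 13.4%.

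BIRC5 encodes an inhibitor of apoptosis protein that serves in the complex as the reader of the haspin mark. Its level was 26.6 RPKM in Huh1 cells with NCsiRNA and 30.8 RPKM with CDCA8 siRNA, and 39.3 and 67.2 RPKM in Huh7 cells. Within each line the CDCA8 siRNA library was the higher one, but Huh1 cells with CDCA8 siRNA remained below Huh7 cells with NCsiRNA. The ratio of CDCA8 siRNA to NCsiRNA was 1.16 in Huh1 cells (interval 1.06 to 1.27, 1070 reads against 936) and 1.71 in Huh7 cells (interval 1.59 to 1.83, 2168 reads against 1262). In Huh7 cells 2.36% of the tested transcripts had a more positive difference than BIRC5, and in Huh1 cells 20.6%. EPR1, an antisense transcript of this locus, was not analysed here.

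INCENP, the scaffold, had 15.9 RPKM in Huh1 cells with NCsiRNA and 13.8 RPKM with CDCA8 siRNA, and 19.8 and 15.3 RPKM in Huh7 cells. Both CDCA8 siRNA libraries were below both control libraries, though 15.3 and 15.9 RPKM are close. The level with CDCA8 siRNA was 87.0% of the control in Huh1 cells (interval 78.8% to 96.0%) and 77.3% in Huh7 cells (interval 70.3% to 84.9%).

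**Figure D2:**
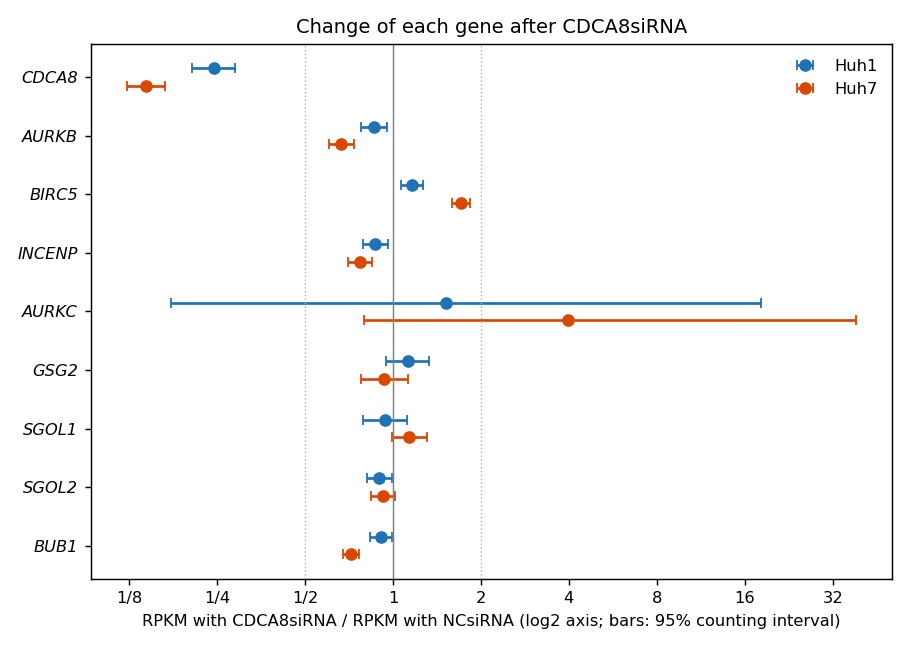
Ratio of the RPKM with CDCA8 siRNA to that with NCsiRNA (horizontal axis, log2 scale) for each gene in Huh1 and Huh7 cells, with bars for the 95% counting interval and dotted lines at 2-fold. CDCA8 alone lies beyond 2-fold lower, AURKB and INCENP lie below 1 in both lines, BIRC5 above 1 in both, and AURKC has intervals from below 1 to above 18.

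AURKC, an Aurora kinase best known from germ cells and a close relative of AURKB, was near the limit of detection. It had 0.134 RPKM in Huh1 cells with NCsiRNA, 0.204 RPKM with CDCA8 siRNA, 0.147 RPKM in Huh7 cells with NCsiRNA and 0.585 RPKM with CDCA8 siRNA, which stand for 2, 3, 2 and 8 reads. The ratio in Huh7 cells was 3.98 with an interval of 0.794 to 38.4, and in Huh1 cells 1.52 with an interval of 0.174 to 18.2, so no difference was detectable at this depth. AURKC did not pass the filter in any pair and entered no test. The reference transcripts of AURKB and AURKC shared 0 of 1198 stretches of 30 bases.

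With 3 subunit genes lower and 1 higher, BIRC5 took a larger share of the mRNA of the complex genes with CDCA8 siRNA. The summed level of CDCA8, AURKB, BIRC5 and INCENP was 117 RPKM in Huh1 cells with NCsiRNA and 94.1 RPKM with CDCA8 siRNA, against 179 and 135 RPKM in Huh7 cells. BIRC5 made up 22.7% of that sum in Huh1 cells with NCsiRNA and 32.8% with CDCA8 siRNA, and 22.0% and 49.6% in Huh7 cells. The share of CDCA8 was 20.6% and 6.23% in Huh1 cells and 28.7% and 5.44% in Huh7 cells. INCENP kept a share of 13.5% and 14.7% in Huh1 cells and of 11.1% and 11.3% in Huh7 cells. The lower CDCA8 alone raises the shares of the others, so ratios without CDCA8 are given next. BIRC5 stood at 1.68 times INCENP in Huh1 cells with NCsiRNA and 2.23 times with CDCA8 siRNA, and at 1.98 and 4.38 times in Huh7 cells. AURKB stood at 3.19 and 3.16 times INCENP in Huh1 cells and at 3.46 and 2.97 times in Huh7 cells. The ratio of AURKB to INCENP thus varied less between libraries than that of BIRC5 to INCENP.

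**Figure D3:**
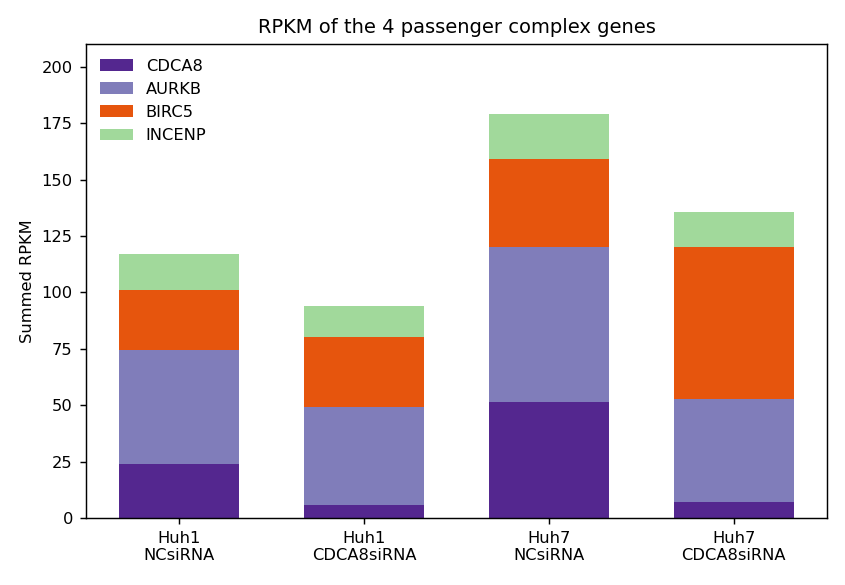
Summed RPKM (vertical axis, starting at 0) of CDCA8, AURKB, BIRC5 and INCENP, stacked, in each of the 4 libraries. In Huh7 cells with CDCA8 siRNA, BIRC5 makes up 49.6% of the sum, against 22.0% with NCsiRNA.

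Among the recruitment genes, BUB1 had the largest difference in Huh7 cells. In Huh1 cells its ratio of 0.910 was no further from 1 than those of SGOL2 (0.898) and GSG2 (1.12). BUB1, the checkpoint kinase that marks histone H2A, had 23.1 RPKM in Huh1 cells with NCsiRNA and 21.0 RPKM with CDCA8 siRNA, and 57.7 and 41.4 RPKM in Huh7 cells. Both Huh7 libraries were above both Huh1 libraries. With CDCA8 siRNA it stood at 91.0% of the control in Huh1 cells (interval 83.3% to 99.3%) and at 71.7% in Huh7 cells (interval 67.5% to 76.3%).

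GSG2, the haspin gene, had 6.97 RPKM in Huh1 cells with NCsiRNA and 7.84 RPKM with CDCA8 siRNA, and 7.34 and 6.84 RPKM in Huh7 cells. Its 4 libraries lay within a narrow range, and the ratios of 1.12 in Huh1 cells (interval 0.947 to 1.33) and 0.932 in Huh7 cells (interval 0.779 to 1.12) include 1. GSG2 is a single-exon gene at chr17:3723903-3726699 in the GENCODE 29 annotation of GRCh38, inside the gene ITGAE on the opposite strand. It shares 427 bases with exons of ITGAE over all its annotated transcripts, and 0 with the exons of the ITGAE transcript that was measured. ITGAE, an integrin gene, had 5.05, 5.56, 4.57 and 4.18 RPKM in the same order of libraries. Both genes were slightly higher with CDCA8 siRNA in Huh1 cells and slightly lower in Huh7 cells, and the ratio of GSG2 to ITGAE was 1.38 and 1.41 in the Huh1 libraries and 1.61 and 1.64 in the Huh7 libraries. Whether reads were counted by strand is not given in the sources used here, and the part of the overlap in these values was not tested.

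The shugoshin genes differed in level, SGOL2 being the higher in every library. SGOL1, the main mitotic protector of centromeric cohesin, had 8.01 RPKM in Huh1 cells with NCsiRNA and 7.53 RPKM with CDCA8 siRNA, and 12.6 and 14.3 RPKM in Huh7 cells. The Huh7 libraries were above the Huh1 libraries with either siRNA, and the ratios of 0.940 in Huh1 cells (interval 0.791 to 1.12) and 1.14 in Huh7 cells (interval 0.992 to 1.30) include 1. SGOL1 shares 679 exon bases with the antisense gene SGO1-AS1, which was not analysed here. SGOL2, the larger shugoshin, had 14.9 RPKM in Huh1 cells with NCsiRNA and 13.4 RPKM with CDCA8 siRNA, and 17.2 and 15.9 RPKM in Huh7 cells. Its ratio was 0.898 in Huh1 cells (interval 0.815 to 0.988) and 0.924 in Huh7 cells (interval 0.843 to 1.01). SGOL2 stood at 1.86 and 1.77 times SGOL1 in the Huh1 libraries but at 1.37 and 1.11 times in the Huh7 libraries, on the scale of RPKM.

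No test could be made inside a cell line, which has 1 library per siRNA. A gene was called there when its log2(RPKM + 1) values differed by 2-fold or more, a scale that understates the change of low genes. In Huh1 cells, 1 of the 8 members past the filter was called lower, CDCA8, against 0.174% of all transcripts, and 0 were called higher, against 0.32%. In Huh7 cells, 1 of 8 was called lower, again CDCA8, against 0.7% of all transcripts, and 0 higher, against 0.873%. CDCA8 is the gene the siRNA was directed to, so the other members added no call at this threshold in either line. At 1.5-fold in Huh7 cells, 1 of 8 was called lower, CDCA8, against 3.42% of all transcripts, and 1 of 8 higher, BIRC5, against 5.3%. AURKB lay on the line of this call in Huh7 cells. Its log2 difference of -0.578 was just short of 1.5-fold, and its -0.587 with a pseudocount of 0.1 RPKM was just past it. By direction alone, 5 of 8 members were lower with CDCA8 siRNA in both cell lines (CDCA8, AURKB, INCENP, SGOL2 and BUB1), against 30.5% of all transcripts, and 1 of 8 was higher in both (BIRC5), against 39%. CDCA8, the target of the siRNA, is counted in the 5 and was lowered by design. Being lower in both lines was not particular to the members. Of the gene lists read below, it held for 32 of 53 G2/M genes, 4 members included in that list. It also held for 30 of 42 S phase genes and 11 of 16 Aurora kinase partners. In these lists 9, 4 and 4 genes were higher in both lines. GSG2 and SGOL1 had opposite signs in the lines.

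**Figure D4:**
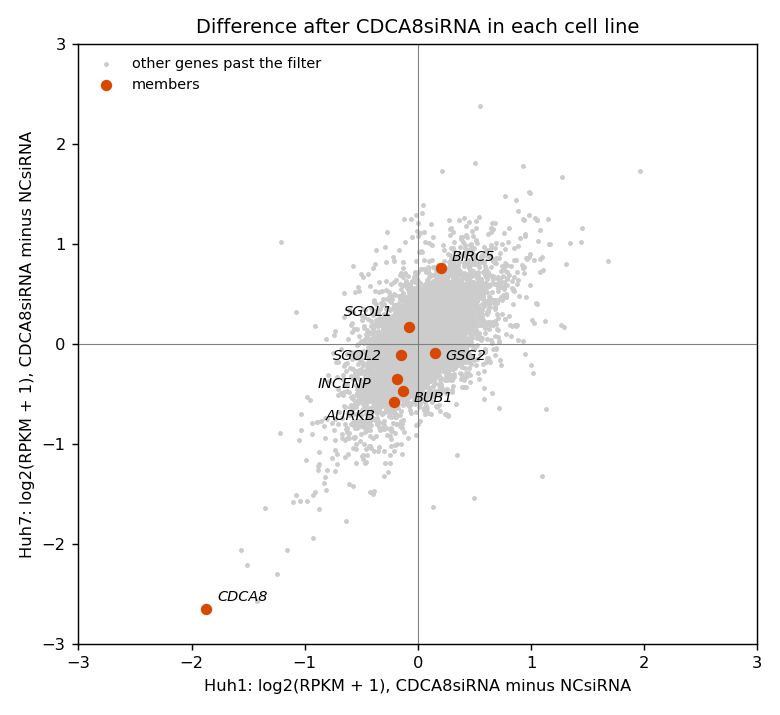
Change in log2(RPKM + 1) from NCsiRNA to CDCA8 siRNA in Huh1 (horizontal axis) and Huh7 cells (vertical axis) for the 10357 transcripts past the filter in both lines, with the 8 members among them marked. CDCA8 lies at -1.87 and -2.65, BIRC5 at 0.21 and 0.76, and AURKB at -0.21 and -0.58.

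A limma model with terms for the cell line and the siRNA was fitted to all 4 libraries and to 10357 transcripts. It asks whether the mean siRNA difference over both lines departs from 0, and not how far repeated cultures would vary. Its error comes from the disagreement between the lines, with 1 residual degree of freedom. The variances of the other transcripts add 8.29 prior degrees of freedom and so carry most of the weight. CDCA8 fell by 2.26 on the log2 scale (SE 0.162, limma, Benjamini-Hochberg adjusted p = 0.000542, lower in 2 of 2 lines). AURKB fell by 0.39 (SE 0.106, adjusted p = 0.0470, lower in 2 of 2 lines), and BIRC5 rose by 0.48 (SE 0.128, adjusted p = 0.0450, higher in 2 of 2 lines). Thus 2 of 8 members were called lower, against 4.21% of all transcripts, and 1 of 8 higher, against 6.03%. CDCA8, as the target, was lowered by design, so AURKB was the only other member called lower. The calls of AURKB and BIRC5 lie close to the threshold and were lost when the libraries were scaled to the same upper quartile (adjusted p = 0.0515 and 0.0609) and in a fit without a mean-variance trend (adjusted p = 0.0972 and 0.0905). With no filter, or with the siRNA as the only term, no member was called, CDCA8 included (adjusted p = 0.445 and 1.00). Of the members not called, BUB1 had a difference of -0.30 (adjusted p = 0.114), INCENP of -0.27 (adjusted p = 0.136), SGOL2 of -0.13 (adjusted p = 0.479), SGOL1 of 0.05 (adjusted p = 0.839) and GSG2 of 0.03 (adjusted p = 0.903). An exact permutation test of 2 libraries against 2 cannot go below a two-sided p of 0.333, so it was not used.

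Differences between the lines in the size of the response could not be tested for the same reason. On the log2(RPKM + 1) scale, the difference in Huh7 cells minus that in Huh1 cells was -0.78 for CDCA8 (counting SD 0.142), 0.55 for BIRC5 (counting SD 0.0799), -0.37 for AURKB (counting SD 0.10) and -0.34 for BUB1 (counting SD 0.0752). For CDCA8, AURKB, BIRC5, INCENP and BUB1 the difference from the control was larger in Huh7 than in Huh1 cells, and for SGOL2 it was about the same. Over all transcripts, 2-fold differences were also more common in Huh7 cells, with 0.7% lower and 0.873% higher. In Huh1 cells the shares were 0.174% and 0.32%. CDCA8 itself was lowered further in Huh7 cells, but from a higher control level. It ended at 7.36 RPKM in Huh7 and 5.86 RPKM in Huh1 cells. Whether this bears on the other genes was not tested.

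Between the lines, several members had higher levels in Huh7 cells. With NCsiRNA, 2 of 8 members were called at least 2-fold higher in Huh7 than in Huh1 cells, CDCA8 at 2.14 times and BUB1 at 2.50 times (interval 2.32 to 2.68), against 17% of all transcripts, and 0 were called lower, against 10.2%. The next were SGOL1 at 1.57 times (interval 1.35 to 1.84), BIRC5 at 1.48 times (interval 1.36 to 1.61) and AURKB at 1.35 times (interval 1.24 to 1.49). INCENP stood at 1.25 times, SGOL2 at 1.16 times and GSG2 at 1.05 times. In the cell line term of the limma fit, 4 of 8 members were called higher in Huh7 cells, against 39.1% of all transcripts, and 0 lower, against 28.7%. They were BUB1 by 1.11 (SE 0.108, adjusted p = 1.4e-05), BIRC5 by 0.82 (SE 0.128, adjusted p = 0.000325), SGOL1 by 0.72 (SE 0.114, adjusted p = 0.000361) and CDCA8 by 0.68 (SE 0.162, adjusted p = 0.00457), on the log2 scale. This term averages over both siRNAs, so the value of CDCA8 includes its own silencing. The line difference of CDCA8 was 1.06 with NCsiRNA and 0.29 with CDCA8 siRNA, and that of BIRC5 was 0.55 and 1.10. With no filter on low values BUB1 alone was called, beside 5433 of all 18398 transcripts. With the cell line as the only term 3 members were called, without CDCA8 (adjusted p = 0.606), beside 5176 of 10357 transcripts. AURKB, SGOL2 and INCENP were higher in Huh7 cells by 0.25, 0.22 and 0.22 without being called, so the share of members called was near that of all transcripts. With CDCA8 siRNA, AURKB was at 1.05 times in Huh7 cells (interval 0.940 to 1.16) and BIRC5 at 2.18 times (interval 2.02 to 2.35).

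The order of the levels per length changed with the siRNA. With NCsiRNA, AURKB was the highest of the 9 members in both lines. In Huh1 cells it was followed by BIRC5, CDCA8 and BUB1, whose neighbouring counting intervals overlapped, then by INCENP and SGOL2, which overlapped, then SGOL1 and GSG2, which overlapped, and AURKC. In Huh7 cells with NCsiRNA the order was AURKB, BUB1, CDCA8, BIRC5, INCENP, SGOL2, SGOL1, GSG2 and AURKC, with no overlap between neighbours. With CDCA8 siRNA, CDCA8 came to place 8 in Huh1 cells and place 7 in Huh7 cells, next to GSG2 or SGOL1. BIRC5 came to place 1 in Huh7 cells with CDCA8 siRNA, above AURKB, and stayed at place 2 in Huh1 cells. No spread between replicates is available for these orders.

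The partners of the complex were read from gene lists in the same limma fit. Over all 10357 transcripts, 436 were called lower and 625 higher with CDCA8 siRNA, and the median difference was 0.03 on the log2 scale. Of 16 genes that activate Aurora kinases or act with them, 2 were called lower and 0 higher, with a median of -0.15. PLK1, the mitotic polo-like kinase, fell by 0.55 (adjusted p = 0.00938, 30.4 to 21.7 RPKM in Huh1 and 77.7 to 50.1 RPKM in Huh7 cells). BORA, the activator of AURKA, fell by 0.40 (adjusted p = 0.0449). CDK1 had a difference of -0.39 (adjusted p = 0.0603).

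Of 10 checkpoint partners of BUB1, 3 were called lower and 1 higher, with a median of -0.07. MAD2L1BP, which silences the checkpoint by opening MAD2, fell by 0.53 (adjusted p = 0.0143), and ZWILCH, a subunit of the RZZ complex at kinetochores, fell by 0.48 (adjusted p = 0.0197). The remaining gene called lower was BUB3, which fell by 0.38 (adjusted p = 0.0277). ZW10, another RZZ subunit, rose by 0.58 (adjusted p = 0.0116), with 11.0 and 16.9 RPKM in the Huh1 libraries and 7.65 and 11.9 RPKM in the Huh7 libraries (NCsiRNA first). Members of the same RZZ complex were thus called in opposite directions.

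Of 20 genes for PP2A, cohesin and cohesin release, through which shugoshins act, 1 was called lower and 0 higher, with a median of -0.04. It was PPP2R5C, a B56 subunit of PP2A, which fell by 0.44 (adjusted p = 0.0426). PPP2R1B, a PP2A scaffold, and SMC1A, a cohesin subunit, had differences of -0.30 and -0.29 (adjusted p = 0.117 and 0.082). Of 7 genes for the phosphatase PP1 and its targeting that oppose Aurora B and haspin, limma called 0, and 0 had an unadjusted p under 0.05. Their largest differences were 0.15 for PPP1CB, -0.13 for PPP1R2 and -0.12 for PPP1R7.

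The genes that move or remove the complex and its substrates were called in no case. Of 12 genes for relocation to the midzone and removal from chromatin, limma called 0 and 0 had an unadjusted p under 0.05, with a median near 0. The largest differences were 0.21 for KLHL13, -0.16 for KLHL9 and -0.15 for VCP, which act in ubiquitin-dependent removal. Of 10 substrate genes limma called 0, and 2 were lower at an unadjusted p under 0.05, with a median of -0.13. KIF2C, the microtubule depolymerase at centromeres, had a difference of -0.28 (adjusted p = 0.0903), DSN1 of -0.25 and NDC80 of -0.16, both kinetochore genes.

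Of a list of 14 genes made up of DREAM subunits, E2F factors and their partners, MYBL2, FOXM1 and CEBPA, 1 was called lower and 0 higher, with a median of 0.03. The gene called was CEBPA, a liver transcription factor known to bind E2F complexes and no part of DREAM, so none of the others was called. It fell by 1.07 (adjusted p = 0.000787). Its levels were 94.4 and 47.2 RPKM in Huh1 cells and 68.9 and 30.3 RPKM in Huh7 cells. TFDP2 and TFDP1, the E2F partners, had differences of -0.26 and 0.19. Of the other genes with the BIR domain of survivin, 5 of 6 passed the filter, limma called 0, and 1 was higher at an unadjusted p under 0.05, with a median of 0.10. BIRC3, an inhibitor of apoptosis protein, had 2.13 and 2.18 RPKM in Huh1 cells and 4.10 and 8.74 RPKM in Huh7 cells, a difference of 0.48 (adjusted p = 0.156). BIRC2 and BIRC6 had differences of 0.24 and 0.10.

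**Figure D5:**
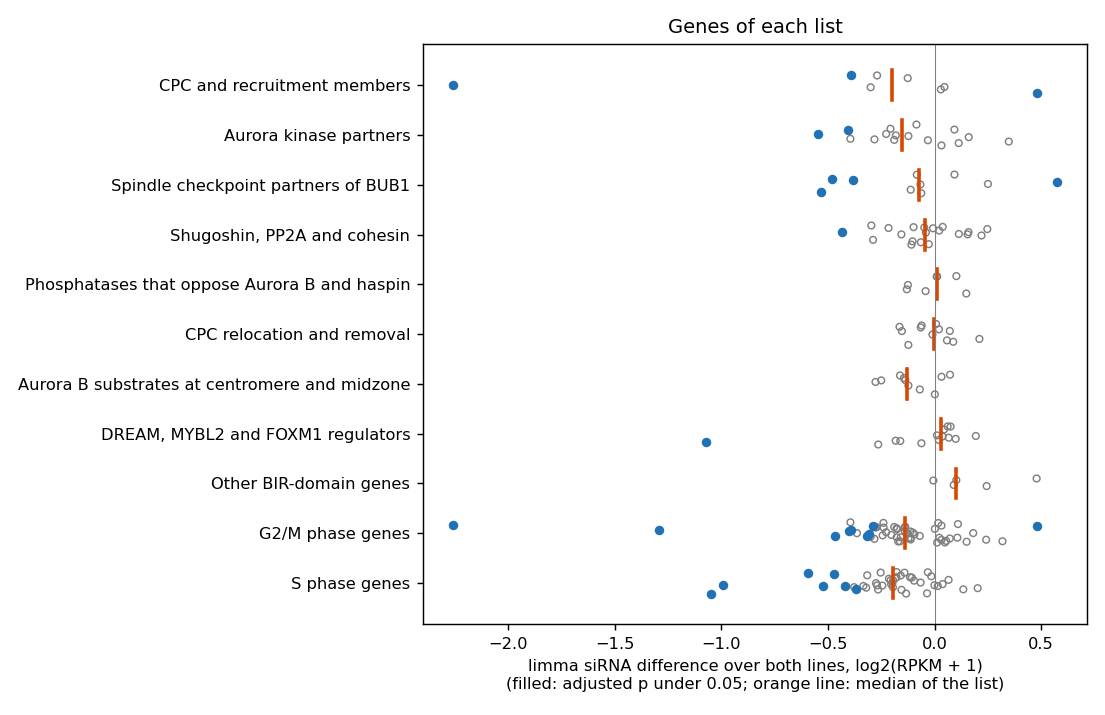
Difference with CDCA8 siRNA over both cell lines in the limma fit (horizontal axis, log2(RPKM + 1) scale) for every gene tested, 1 row for each list. Filled points have an adjusted p under 0.05, and the orange line is the median, which lies at -0.14 for the G2/M genes and -0.19 for the S phase genes.

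Cell cycle phase genes were called lower more often than all transcripts, though most were not called. Over all transcripts, 4.21% were called lower and 6.03% higher. Of 53 G2/M genes tested, which include CDCA8, AURKB, BIRC5 and BUB1, 8 were called lower and 1 higher and 44 were not called, with a median of -0.14. CDCA8 and AURKB are among those called lower, and the 1 called higher was BIRC5. NUSAP1, a spindle microtubule protein, fell by 1.29 (adjusted p = 0.00087), TMPO, a lamina-associated protein, by 0.47 (adjusted p = 0.0205) and TOP2A, the DNA topoisomerase, by 0.40 (adjusted p = 0.0192). Of 42 S phase genes, 7 were called lower, 0 higher and 35 were not called, with a median of -0.19. At an unadjusted limma p under 0.05, 18 G2/M genes were lower and 3 higher, and 16 S phase genes were lower and 0 higher. Over all 10357 transcripts, 1090 were lower and 1604 higher at that threshold. SLBP, which binds histone mRNA, fell by 1.05 (adjusted p = 0.00129), PCNA, the replication clamp, by 0.99 (adjusted p = 0.00785) and DTL, which targets proteins bound to PCNA, by 0.59 (adjusted p = 0.0331). The part of a changed phase distribution in the values of AURKB, BIRC5 and BUB1 was not tested.

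The mean profile of AURKB, BIRC5 and INCENP over the 4 libraries was compared with 7201 other transcripts with at least 5 RPKM in every library, by the Euclidean distance of centred log2(RPKM + 1) values. The nearest were THUMPD1 at 0.00806, ACIN1 at 0.0189, RBM14 at 0.0212, PDS5B at 0.0215 and NOP14 at 0.0319. All 5 were higher in Huh7 cells and nearly level between siRNAs, as with THUMPD1 at 9.01 and 8.59 RPKM in Huh1 and 12.4 and 11.9 RPKM in Huh7 cells. The members lay further from their own mean, INCENP at 0.307, AURKB at 0.424 and BIRC5 at 0.723. The mean thus stands for none of the 3 genes, since the opposite directions of AURKB and BIRC5 cancel in it.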

How the data were processed

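Total RNA of 4 cultures was made into libraries with an Illumina TruSeq RNA kit, per the labels. The submitters' processing notes name CASAVA 1.8.2, TopHat2 2.0.9 and the genome build hg19; the counter, annotation and filters are not given in the sources used here. The authors deposited 1 RPKM value for each of 18398 RefSeq transcripts per library. The siRNA variant, dose and time came from the study's methods. Groups came from the labels.

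The members and lists were chosen with earlier results of these data known. Values were analysed as log2(RPKM + 1). A transcript was kept if either library of each pair reached 1 RPKM. limma 3.58.1 in R 4.3.3 (lmFit, eBayes with a mean-variance trend, Benjamini-Hochberg adjustment, called at an adjusted p under 0.05) had terms for cell line and siRNA. It was tested on simulated data whose changes were equal in both lines and larger than those of AURKB and BIRC5. Calls of that smaller size were thus not checked. Python 3.11.15, numpy 2.4.6, pandas 2.3.3, scipy 1.17.1 and matplotlib 3.10.9 served for the rest. The study's own test was not repeated, since there is 1 library per condition.

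Reads behind a member were recovered from its RPKM, the library constant and the transcript length near that of GENCODE 29 at which all 4 values were whole reads or whole parts of a read, since reads with several alignments appear to be divided. For GSG2 and SGOL1 no length did so, and their reads and intervals are approximate. Reads served for counting intervals only, and depth limits AURKC most. Replicates from separate cultures were not part of these data. Named genes were all members, ITGAE, the 3 non-member genes of each list with the largest absolute siRNA difference in limma, and the 5 nearest profiles. BUB3 was named besides, as the remaining checkpoint partner called lower. EPR1, TUBB4B and UHRF1 of the lists and the endothelial marker PECAM1 were not analysed here. Coordinates and promoter letters are of GRCh38, while the deposited files hold no coordinates. Alternatives tried were a pseudocount of 0.1, no filter, a minimum of 5 RPKM, quantile normalization, upper quartile scaling, limma with the tested term alone or without the trend, and calls at 1.5-fold.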

Additional observations from a re-analysis of the deposited data

Results flagged for a closer look

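GSG2 and SGOL1 were picked out because they had opposite signs in the cell lines. On the log2(RPKM + 1) scale, GSG2 was at 0.149 in Huh1 cells and -0.0891 in Huh7 cells with CDCA8 siRNA against NCsiRNA. SGOL1 was at -0.0796 in Huh1 cells and 0.173 in Huh7 cells. The difference between the lines was not tested, since each line has 1 library per siRNA. It was -0.24 for GSG2 (counting SD 0.158) and 0.25 for SGOL1 (counting SD 0.144), Huh7 minus Huh1 cells.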

How the results depend on the processing

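No replicate could be left out, with 1 library per condition. The limma fit compares the siRNAs within each cell line, and the siRNA term alone is its unpaired form. CDCA8 was called lower in each cell line under every alternative tried there. At 1.5-fold the members called in Huh7 cells came to 2, CDCA8 lower and BIRC5 higher, against 3.42% and 5.3% of all transcripts. AURKB was just short of that call. The 2-fold calls between the lines with NCsiRNA came to 1 with quantile normalization and 1 with upper quartile scaling, which left BUB1. Those scalings moved the median line difference of all genes from 0.10 to -0.02 and 0.04 on the log2 scale. In limma, the members called with the siRNA came to 1 with upper quartile scaling and 1 without the trend, both times CDCA8. Over all genes these fits called 899 and 710 of 10357. The members called came to 0 with no filter and 0 with the siRNA term alone. Over all genes those last 2 fits called 0, with 2050 and 89 at an unadjusted p under 0.05, against 1061 called. With no filter, the members called between the lines came to 1, beside 5433 of 18398 transcripts. With the line term alone they came to 3, without CDCA8, beside 5176 of 10357. GSG2 changed sign with quantile normalization, to -0.0383. AURKB and BIRC5 stayed past the threshold in 3 of 7 limma alternatives each, with adjusted p from 0.00519 to 1.00 and from 0.00172 to 1.00, and kept their direction in all 7. INCENP, SGOL2, SGOL1 and GSG2 were called for the siRNA in 0 of 7, and BUB1 in 1, quantile normalization (adjusted p = 0.0419). The causes were not tested.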
